A study of Mus musculus with 32 samples.

Results

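The mTOR pathway was examined through 43 of its component genes in 4 subsets of mouse bone marrow multipotent progenitors (MPP1 to MPP4). The genes were taken by symbol from a table of 30644 genes, and all 43 were present in it. No cut on their measured values was used, but earlier results of these data were known when they were chosen. The set held the subunits of the mTOR complexes (Mtor, Rptor, Rictor, Mlst8, Akt1s1, Deptor), the TSC complex and its target Rheb (Tsc1, Tsc2, Rheb), and the Rag GTPases with the Ragulator scaffold (Rraga, Rragc, Rragd, Lamtor1, Lamtor2, Lamtor3, Lamtor4, Lamtor5). It also held the folliculin complex (Flcn, Fnip1), GATOR1 (Nprl2, Nprl3, Depdc5), GATOR2 (Mios, Wdr24, Wdr59, Seh1l, Sec13) and the sestrins (Sesn1, Sesn2, Sesn3). The remainder were the S6 kinases and translation targets (Rps6kb1, Rps6kb2, Eif4ebp1, Eif4ebp2, Eif4e), upstream PI3K and Akt genes (Akt1, Akt2, Pdpk1, Pik3ca, Pik3cd, Pik3r1), REDD1 (Ddit4) and the autophagy kinase Ulk1.

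The libraries came from C57BL/6 mice that were wild type (WT), or that carried the 1013 allele of the chemokine receptor gene Cxcr4 on one chromosome (+/1013) or on both (1013/1013). The allele is known to shorten the receptor's intracellular tail, so the Cxcr4 count does not check the genotype. Each library was made from a sorted pool of 3000 cells, and each subset had 3 WT, 3 +/1013 and 2 1013/1013 libraries, 32 in 12 groups. The labels do not state the age or sex of the mice or whether libraries came from separate animals, so p-values measure the spread between libraries, which may be technical. The series asks whether CXCR4 signalling shapes the fate of these progenitors through mTOR and mitochondrial metabolism.

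mTOR is a kinase that joins growth signals to protein synthesis and autophagy. In mTORC1 it is switched on at the lysosome by Rheb once amino acids have brought it there through the Rag GTPases and Ragulator, and GATOR1, GATOR2, the sestrins and folliculin set the state of the Rags. PI3K and Akt relieve the block that the TSC complex places on Rheb, and active mTORC1 acts on the S6 kinases, the eIF4E-binding proteins and ULK1. In blood stem and progenitor cells the pathway is known for its part in the balance between quiescence and growth. Most of this control acts on proteins, which were not measured here.

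Promoters are shown for 4 genes that were higher in MPP4 than in MPP1 and share a motif. RefSeq promoters (build GRCm38.p6) were matched for 37 of the 43 genes. The letters CACGTG, the E-box bound by MYC-family and TFE-family factors and the same on both strands, were in the 250 bases upstream of the start in 6 of the 37 genes, which is 16.2%, and in 6.86% of all 27025 genes. The 6 were Eif4e, Fnip1, Lamtor1, Lamtor4, Rheb and Rragc, and 4 of these are among the 8 genes higher in MPP4 than in MPP1. How often the motif occurs among all genes higher in MPP4 was not tested, so this count is a description only. The Eif4e matches are in its promoter 2, which lies downstream of the annotated gene start at chr3:138526179. Each sequence runs 5′ to 3′ on the gene's strand and ends at the base before the start, with each CACGTG in capitals.
Eif4e, chr3:138527018-138527267, plus strand: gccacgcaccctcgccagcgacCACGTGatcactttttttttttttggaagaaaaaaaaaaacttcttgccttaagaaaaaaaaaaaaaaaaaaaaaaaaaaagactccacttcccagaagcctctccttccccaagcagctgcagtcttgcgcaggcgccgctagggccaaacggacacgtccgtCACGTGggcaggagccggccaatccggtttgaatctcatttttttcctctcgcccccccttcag
Rheb, chr5:24842362-24842611, minus strand: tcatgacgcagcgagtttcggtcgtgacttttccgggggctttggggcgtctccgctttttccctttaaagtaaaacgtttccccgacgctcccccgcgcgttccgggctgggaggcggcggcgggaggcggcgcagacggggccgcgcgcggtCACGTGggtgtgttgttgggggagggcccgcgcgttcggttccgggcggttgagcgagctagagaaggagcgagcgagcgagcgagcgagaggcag
Lamtor1, chr7:101905587-101905836, plus strand: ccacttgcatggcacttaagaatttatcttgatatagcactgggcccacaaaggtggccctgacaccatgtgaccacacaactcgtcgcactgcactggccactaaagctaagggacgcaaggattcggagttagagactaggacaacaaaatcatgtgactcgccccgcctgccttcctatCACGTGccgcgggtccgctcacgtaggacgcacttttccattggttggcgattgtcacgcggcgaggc
Lamtor4, chr5:138255232-138255481, plus strand: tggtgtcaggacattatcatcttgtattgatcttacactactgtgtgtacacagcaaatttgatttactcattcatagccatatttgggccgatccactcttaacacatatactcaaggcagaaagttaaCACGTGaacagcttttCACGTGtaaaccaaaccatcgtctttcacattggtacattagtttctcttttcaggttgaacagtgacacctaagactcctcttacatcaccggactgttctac
The longer TCACGTGA, the core of the lysosomal-gene motif, which overlaps the E-box, was in none of the 37 and in 0.907% of all genes. The FoxO motif GTAAACA was found in Akt1, the ATF4 element TGATGNAAT in Akt2 and the cyclic AMP element TGACGTCA in Flcn, against 3.54%, 0.91% and 1.77% of all genes, on either strand. A match is a description of the letters and no evidence of binding.

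Library depth ran from 13016000 to 37051000 counts with a median of 28458400, and no pair of libraries held identical counts. The sort was visible in the markers. Flt3, a receptor kinase that marks MPP4, had a median of 399.8 counts scaled to library size (CPM) in MPP4 and 22.6 in MPP1, Slamf1, a marker of MPP1 and MPP2, had medians of 36.3 and 21.2 there and 0 in MPP3 and MPP4, and Cd48, which MPP1 cells lack, had a median of 21.2 in MPP1 and 457 to 793 elsewhere. Libraries also differed in 3 ways that the groups do not give, and fits without these differences are quoted where they change a result. The 8 libraries whose label number is a multiple of 3 had 64.6 to 949 CPM of the immediate-early gene Fos against 1381 to 9321 in the other 24, and their mature neutrophil genes took 0.00302% to 0.378% of counts against 0.000229% to 0.00702%. Leaving these 8 out keeps 1 library each of MPP2 1013/1013 and MPP4 1013/1013. Long and short genes also moved apart between libraries: the median log2 deviation of the longest quartile of genes minus that of the shortest ran from −1.36 in an MPP2 1013/1013 library to 0.94 in an MPP1 1013/1013 library. The Y-linked gene Ddx3y was under 1 CPM in 11 libraries, of which 8 were WT and 0 were 1013/1013.

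All 43 genes passed the filter on low counts, as did 18676 of the 30644 in the table. A total of 35 of the 43, or 81.4%, had counts in every library, against 48.6% of all genes tested. Per kilobase of exon, the highest median level was that of Lamtor5, a Ragulator subunit, at 198 CPM per kilobase, followed by Sec13, shared by GATOR2 and the secretory coat, at 138 and Seh1l, a GATOR2 subunit also found in the nuclear pore, at 77.2. Next came Rraga at 71.8, the cap-binding factor Eif4e at 68.4, its inhibitor Eif4ebp1 at 64.1, Sesn1 at 55.6 and Akt1 at 52.3. Mtor itself was far lower, at 0.887 CPM per kilobase, and Tsc1 at 0.431 and Depdc5 at 0.21 were lower still. The order depends on the length used. Per kilobase of the deposited median transcript length, Eif4e came first at 519, then Sec13 at 478, Akt1 at 267, Rragc at 244 and Lamtor5 at 216. By that measure Seh1l had 90.5, Rraga 71.8 and Mtor 5.55. The least detected gene was Rragd, which was at 0 in 25 of the 32 libraries and is not interpreted further. The SD of log2 values between replicates had a median of 0.594 over the 43 genes and 0.653 over all genes tested. It was smallest for Sec13 at 0.192 and largest for Sesn2 at 1.97, Tsc2 at 1.90 and Depdc5 at 1.75, so for the last 3 only very large differences could pass. The strand setting of the counting is not given, and opposite-strand genes cover 23.7% of the exon bases of Rps6kb2, 22.5% of Mlst8, 18.7% of Lamtor1 and 17.7% of Nprl3, whose counts may hold reads of those neighbours.

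**Figure D1:**
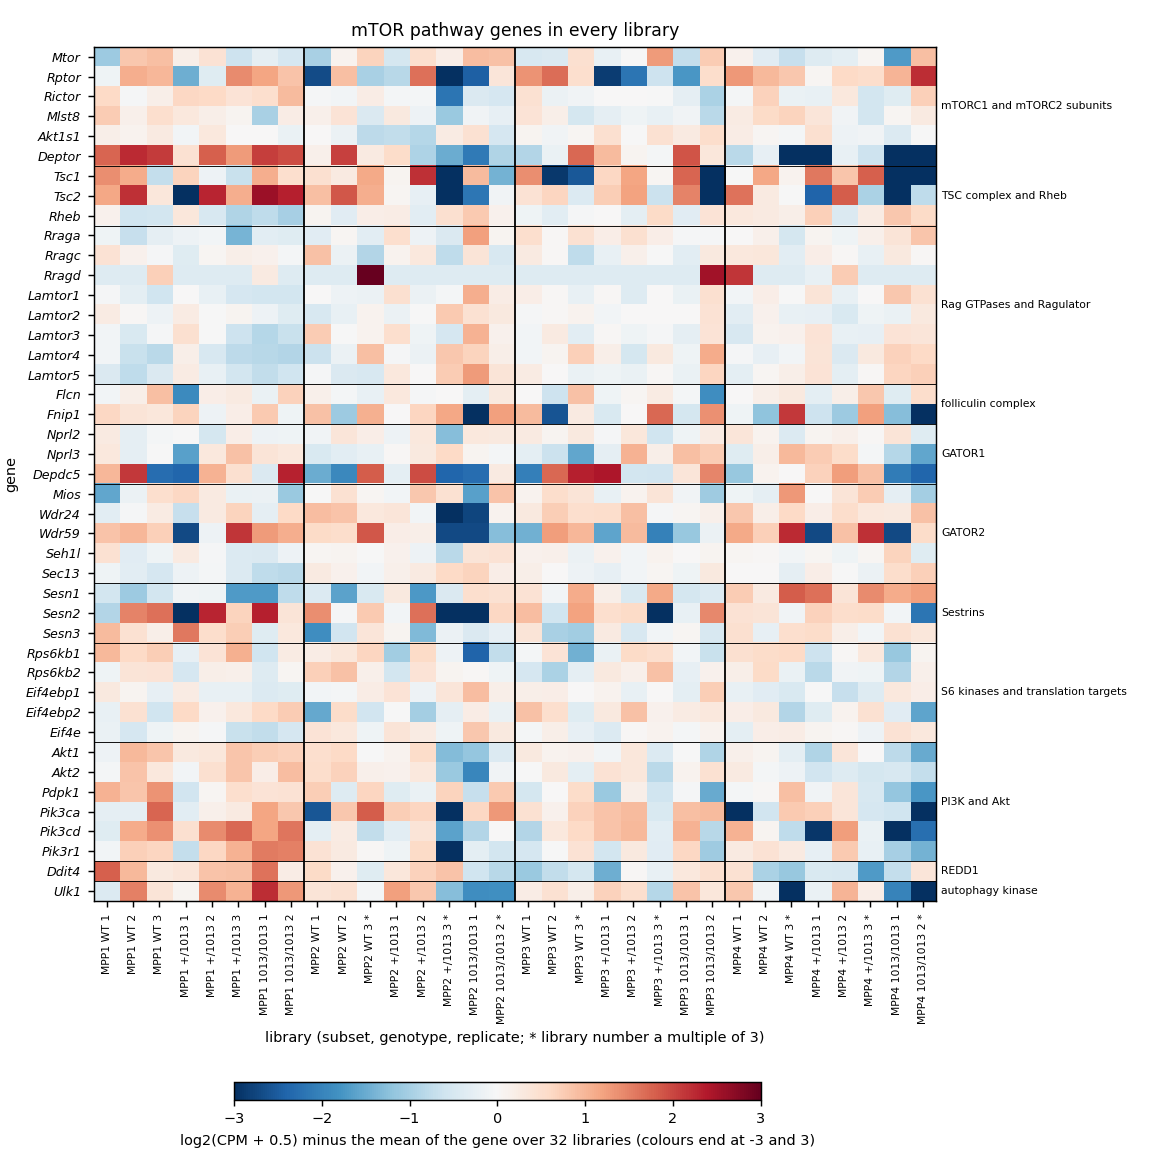
Level of each of the 43 genes (rows, by role) in each of the 32 libraries (columns, by subset and genotype), as log2(CPM + 0.5) minus the gene's mean over all libraries, with libraries numbered by a multiple of 3 starred. Deptor is highest in the MPP1 columns and Sesn1 in the MPP4 columns, and the rows of Tsc1, Tsc2, Depdc5 and Sesn2 vary widely within groups.

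The first question was how the pathway's genes differ between progenitor subsets. MPP4 and MPP1 differed most: averaged over the 3 genotypes, 15 of the 43 genes passed an adjusted p of 0.05 in edgeR's quasi-likelihood test, 8 of them higher in MPP4 and 7 lower. Of all genes tested, 14.7% passed, 7.59% higher and 7.12% lower. At an unadjusted p under 0.05 the shares were 41.9% of the 43 and 30.7% of all genes. The median log2 difference was −0.15 for the 43 genes and −0.15 for all genes, so each difference is to be read against that shift. Higher genes were Sesn1, Sec13, Rheb, Eif4e, Rraga and 3 Ragulator subunits, and lower genes were Deptor, Akt1, Akt2, Pik3cd, Pdpk1, Ulk1 and Ddit4. Only Sesn1 passed in all 13 alternatives and in all 16 fits that left out 1 library. Without the 1013/1013 libraries, an alternative chosen after seeing the data, Sesn1 was the single member to pass and 3.27% of all genes did. The 8 mature neutrophil genes examined summed to 2.22 to 35.3 CPM in the MPP1 groups, where Mmp8 was at 0 in all libraries, and to 6.45 to 3732 in the MPP4 groups, and without the libraries numbered by a multiple of 3, none of which is MPP1, 11 of the 15 genes passed. In these pools of RNA, fewer cells of a type and less RNA per cell cannot be told apart.

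Sesn1 (chr10:41809935-41908424, plus strand, mm10) encodes a stress-inducible sestrin, which restrains GATOR2 and thereby mTORC1. In MPP1 it had 162, 112 and 163 CPM in the WT libraries, 219.9, 216 and 73.1 in the +/1013 libraries, and 72.4 and 140.4 in the 1013/1013 libraries. In MPP4 the WT libraries had 401, 285 and 836 CPM, the +/1013 libraries 743, 312 and 641, and the 1013/1013 libraries 512 and 559. The 8 MPP4 libraries thus lay above all 8 MPP1 libraries, a separation shown by 2 of the 43 genes and by 3.48% of all genes. The log2 difference was 1.96 ± 0.33 (SE), or 3.88-fold, with an adjusted p of 0.000384 by edgeR. It was 1.78 with an adjusted p of 0.0165 without the 1013/1013 libraries. In the WT libraries alone it was 1.80 ± 0.53, the groups did not overlap, and the adjusted p was 0.16. Libraries numbered by a multiple of 3, none of them MPP1, had a median Sesn1 level of 519 CPM against 198 in the other 24. They include the highest MPP4 WT value, 836. Over all alternatives and left-out libraries, the difference between MPP4 and MPP1 ran from 1.70 to 2.14. The medians of the 4 subsets, from MPP1 to MPP4, were 151, 178, 245 and 535 CPM, with ranges of 72.0 to 339 in MPP2 and 166 to 522 in MPP3. MPP2 and MPP3 differed from MPP1 by 0.57 ± 0.32 and 0.96 ± 0.32, with adjusted p-values of 0.298 and 0.102. MPP4 exceeded MPP2 by 1.39 ± 0.33 (adjusted p 0.0137), a call lost without the first MPP2 1013/1013 library, and exceeded MPP3 by 0.99 ± 0.32 (adjusted p 0.184). The other sestrins, Sesn2 and Sesn3, differed between MPP4 and MPP1 by −1.33 ± 1.07 and −0.23 ± 0.34 and did not pass.

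**Figure D2:**
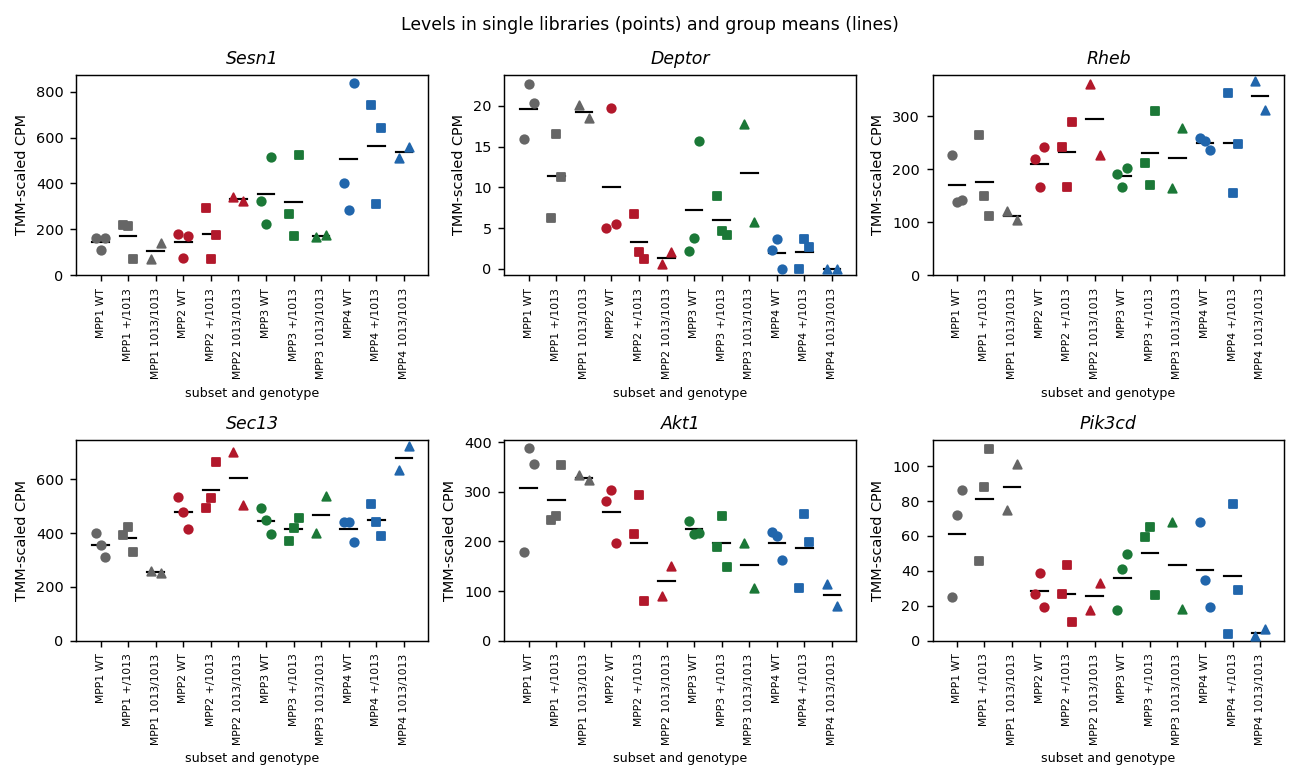
CPM of Sesn1, Deptor, Rheb, Sec13, Akt1 and Pik3cd in every library by subset and genotype (circles WT, squares +/1013, triangles 1013/1013, line at the group mean). Sesn1 lies between 285 and 836 CPM in MPP4 and between 72.4 and 219.9 in MPP1, and the 1013/1013 triangles of Sec13 sit at opposite ends of the range in MPP1 and MPP4.

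Among the mTOR complex subunits, Deptor (chr15:55112317-55259271, plus strand), an inhibitor that binds mTOR, was the member to differ. It had 15.9, 22.7 and 20.3 CPM in the MPP1 WT libraries, 6.20, 16.5 and 11.3 in +/1013, and 20.1 and 18.5 in 1013/1013. In MPP4 it had 2.30, 3.66 and 0 CPM in WT, 0, 3.69 and 2.69 in +/1013, and 0 in both 1013/1013 libraries. Every MPP4 library lay under every MPP1 library. The fitted log2 difference was −5.92 ± 1.14 (adjusted p 0.00138), a value that depends on how the zeros are treated. In the 1013/1013 libraries Deptor was at least 138-fold lower in MPP4, taking 3 counts per library as the floor. Without the 1013/1013 libraries the fitted difference was −2.86 and the adjusted p 0.154, so the call was lost in that fit of fewer libraries. In WT and +/1013 the MPP4 values, 0 to 3.69 CPM, still lay under the MPP1 values, 6.20 to 22.7. The call was kept in all 16 fits that left out 1 library. Deptor was also lower in MPP4 than in MPP2 by −3.74 (adjusted p 0.0467) and than in MPP3 by −4.89 (adjusted p 0.0275). The call against MPP2 was lost in 11 of 16 fits that left out 1 library, and that against MPP3 in 4 of 16.

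Mtor (chr4:148448611-148557683, plus strand) had 2.39 to 22.1 CPM over the 32 libraries with a median of 8.97. Its log2 difference between MPP4 and MPP1 was −0.16, with a 95% interval from −1.04 to 0.71, and turned to 0.50 once the length trend was removed. The interval holds differences as large as those that passed for Lamtor1 and Pdpk1, so it does not show that the subsets have the same level. For MPP2 and MPP3 against MPP1 the differences were 0.34 and 0.18. Rptor and Rictor, the defining subunits of mTORC1 and mTORC2, differed between MPP4 and MPP1 by 0.37 ± 0.69 and −0.40 ± 0.25, and Mlst8 and Akt1s1 by 0.06 ± 0.23 and −0.08 ± 0.21. None of these passed.

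Among the regulators at the lysosome, Rheb, the GTPase that switches mTORC1 on, was higher in MPP4. It had 104 CPM in the lowest MPP1 library, a median of 141 and 265 in the highest, against 154, 255 and 365 in MPP4, so the groups overlapped. The log2 difference was 0.88 ± 0.20 (adjusted p 0.00502). The inhibitors of Rheb, Tsc1 and Tsc2, gave −3.10 ± 1.28 and −1.91 ± 1.09 and did not pass. Of the 8 Rag and Ragulator genes, 4 were higher, 0 lower, and the median difference was 0.59. These were Lamtor5 at 0.70 ± 0.16 (adjusted p 0.00592), Lamtor1, which anchors the scaffold to the lysosome, at 0.61 ± 0.15 (0.00936), Lamtor4 at 0.78 ± 0.26 (0.0494) and Rraga at 0.57 ± 0.19 (0.0497). The calls of Lamtor4 and Rraga were lost in 13 and 11 of 16 fits that left out 1 library. Lamtor3 at 0.43, Rragc at 0.04 and Lamtor2 at −0.08 did not pass. In GATOR2, Sec13 alone passed, at 0.62 ± 0.11 (adjusted p 0.000406), while Mios, Wdr24, Wdr59 and Seh1l lay from −0.24 to 0.37. No gene of GATOR1 or of the folliculin complex passed, with values from −2.59 for Depdc5 to 0.14 for Nprl2.

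Sec13 illustrates what the genotypes contribute to these averages. In WT it had 401, 357 and 312 CPM in MPP1 and 441, 442 and 367 in MPP4, and in +/1013 it had 393, 424 and 331 against 509.6, 440.4 and 391. In 1013/1013 it had 259.7 and 252.5 CPM in MPP1 against 634 and 723 in MPP4. The WT and +/1013 libraries of both subsets overlapped, and the 1013/1013 libraries did not. Without them the log2 difference was 0.23, Rheb's was 0.53, Lamtor5's 0.38, Lamtor1's 0.32 and Eif4e's 0.25, and none passed. A test of whether the genotype effect varied among the 4 subsets, also added after seeing the data, gave Sec13 the lowest adjusted p of the 43 genes for 1013/1013, 0.381.

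Of the translation genes, Eif4e, which binds the mRNA cap, was higher in MPP4 than in MPP1 by 0.50 ± 0.13 (adjusted p 0.0143). Its lowest, median and highest values were 241, 317 and 423 CPM in MPP1 and 326, 443 and 544 in MPP4. The call was lost without the first MPP1 1013/1013 library. The inhibitors Eif4ebp1 and Eif4ebp2 gave −0.01 and −0.61, the S6 kinases Rps6kb1 and Rps6kb2 gave −0.36 and −0.15, and none of the 4 passed.

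The upstream genes went the other way. All 6 PI3K and Akt genes had negative differences between MPP4 and MPP1, with a median of −1.05, and 4 passed. Akt1, the kinase that relieves TSC inhibition, had 178, 329 and 389 CPM as lowest, median and highest value in MPP1 and 69.8, 180.5 and 255 in MPP4, a log2 difference of −1.02 ± 0.24 (adjusted p 0.00667). Pik3cd, the catalytic PI3K subunit of blood cells, had 25.2, 80.5 and 109.7 CPM in MPP1 and 2.77, 23.9 and 78.5 in MPP4, a difference of −1.99 ± 0.49 (0.00837). The lowest MPP4 values were those of both 1013/1013 libraries, at 2.77 and 6.47 CPM, and of 1 +/1013 library, at 3.94. Akt2 at −0.85 ± 0.25 (0.0273) and Pdpk1, which phosphorylates Akt, at −0.91 ± 0.31 (0.0472) also passed, while Pik3ca at −1.16 and the regulatory subunit Pik3r1 at −1.09 (0.0652) did not. Ulk1, which starts autophagy and is held back by mTORC1, was lower by −2.10 ± 0.55 (0.0122), and Ddit4, whose product REDD1 restrains mTORC1 under stress, by −1.62 ± 0.48 (0.0245). In the 16 fits that left out 1 library, the call of Pdpk1 was lost in 13, that of Akt2 in 4, that of Ddit4 in 2 and that of Ulk1 in 1, the one without the second MPP4 1013/1013 library. Without the 1013/1013 libraries the values were −0.61 for Akt1, −0.67 for Akt2, −0.41 for Pdpk1, −0.86 for Pik3cd, −0.68 for Ulk1 and −1.78 for Ddit4, and none passed. Libraries numbered by a multiple of 3, none of them MPP1, had a median Akt1 level of 156 CPM against 243 in the other 24. The same medians were 71.6 against 115 for Akt2, 22.9 against 44.5 for Pik3cd and 6.34 against 19.4 for Ulk1. They were 1.71 against 3.22 for Ddit4, and higher for Pdpk1, 44.6 against 28.9.

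**Figure D3:**
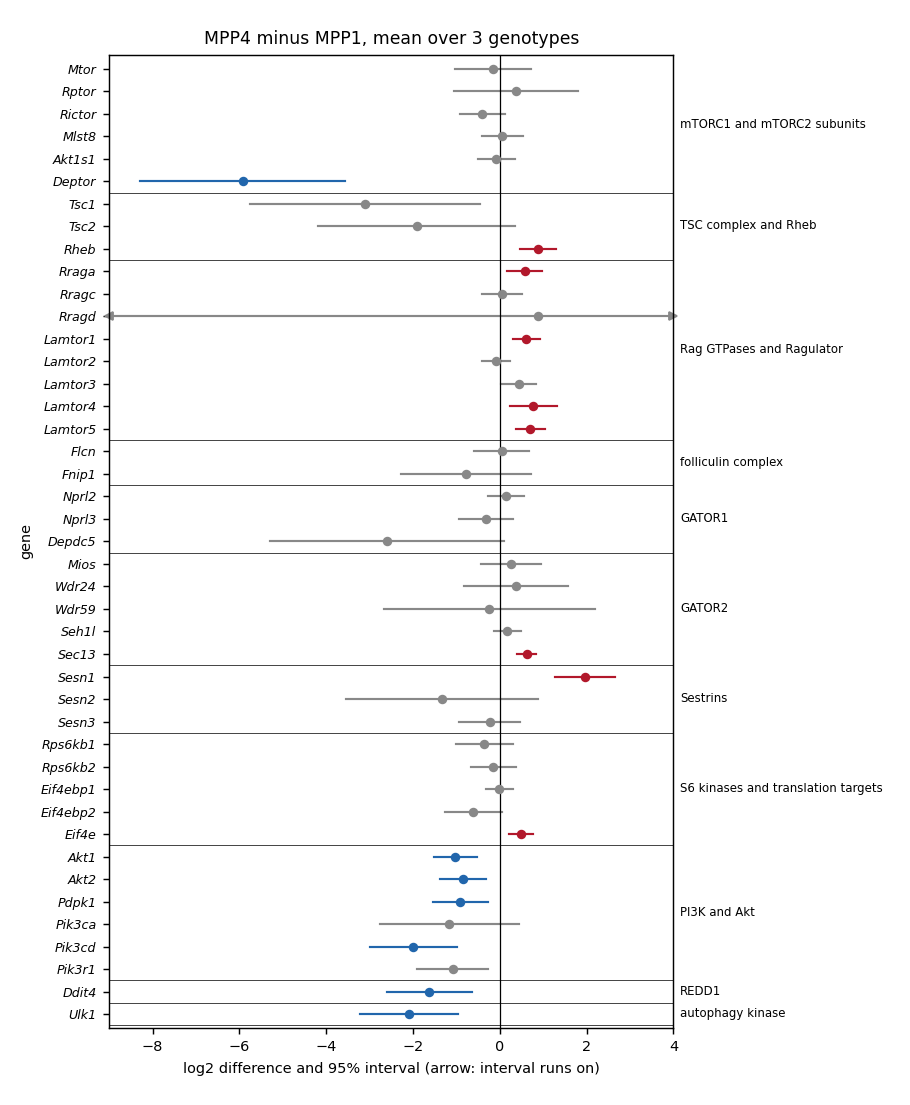
Log2 difference between MPP4 and MPP1, averaged over genotypes, for each of the 43 genes by role, with 95% intervals (red higher and blue lower at an adjusted p under 0.05 by edgeR, grey not passing). The Rag and Ragulator genes lie mostly to the right and the PI3K and Akt genes to the left of 0.

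The higher genes were shorter on the median than the other members. The 8 genes that were higher had a median of 3.2 kilobases of exon, the 7 that were lower 6.49 and the 28 others 6.17. The lower genes were thus near the others in length. Exceptions were Ddit4, which was lower and has 1.755 kilobases, and Rheb, which was higher and has 7.72. The higher genes also had a higher level, with a median of 198 CPM, against 29.6 for the lower genes and 26.3 for the others. Over all genes, the median difference between MPP4 and MPP1 went from 0.34 in the shortest quartile of genes to −0.02, −0.33 and −0.65 in the longer quartiles. With the length trend of each library removed, another alternative chosen after seeing the data, 11 members passed and 10 of them were among the 15. The calls of Rraga, Lamtor4, Lamtor5, Akt2 and Pdpk1 were lost and Lamtor2 was gained. Sesn1, with 3.98 kilobases of exon, kept its call.

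**Figure D4:**
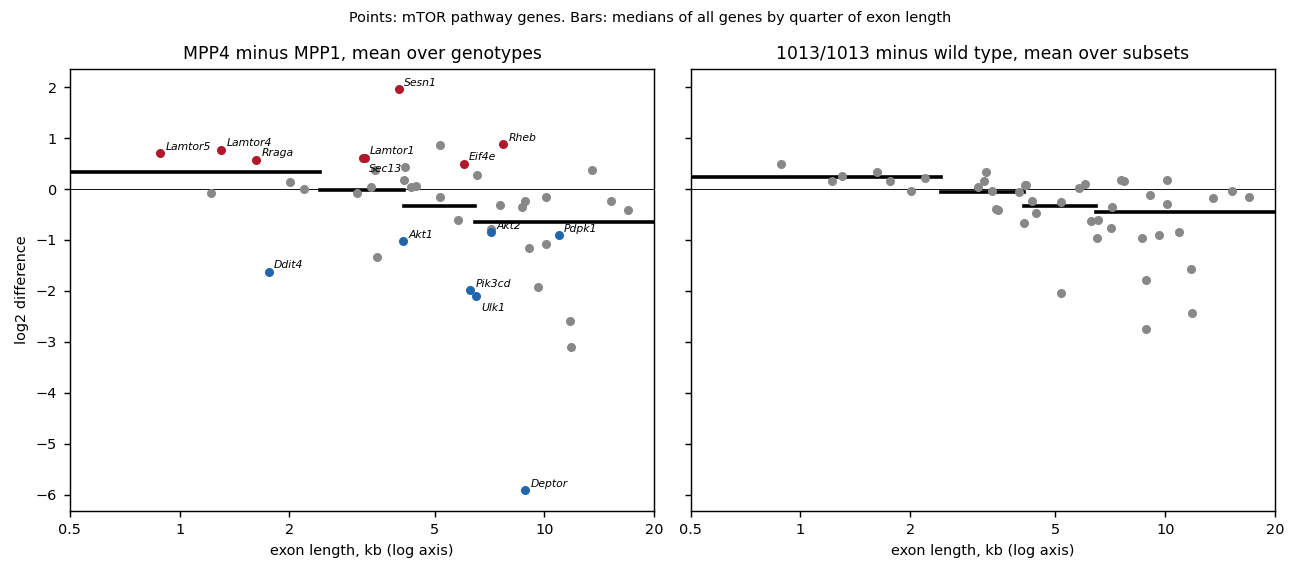
Log2 difference of each of the 43 genes against its exon length (log axis), with bars at the median of all genes tested in each length quartile. In MPP4 against MPP1 the bars step down from 0.34 to −0.65.

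MPP2 differed from MPP1 in 6 of the 43 genes, with 6.73% of all genes passing, 5.01% higher and 1.72% lower. Sec13 at 0.74 ± 0.11 (adjusted p 0.00118), Eif4e at 0.68 ± 0.13 (0.0047), Lamtor5 at 0.78 ± 0.16 (0.00703), Lamtor1 at 0.60 ± 0.15 (0.0194) and Rheb at 0.70 ± 0.20 (0.0379) were higher in MPP2. Sec13 had 252.5, 344 and 424 CPM as lowest, median and highest value in MPP1 and 416, 517.5 and 703 in MPP2. Rictor was lower, by −0.83 ± 0.25 (0.0463), with medians of 80.9 CPM in MPP1 and 51.9 in MPP2. The calls of Rheb and Rictor were lost in 11 and 12 of 16 fits that left out 1 library, and none of the 6 passed without the 1013/1013 libraries. Length moved with this comparison as well: the medians of all genes by length quartile went from 0.37 to −0.58, the 5 higher genes had a median of 3.21 kilobases of exon and Rictor has 16.9. With the length trend removed, Rictor and Lamtor5 lost their calls. MPP3 differed from MPP1 in 1 gene, Sec13, at 0.44 ± 0.11 (adjusted p 0.0256), with 3.11% of all genes passing. This call was lost in 6 of 16 such fits and without the 1013/1013 libraries. The next lowest p-values there were those of Lamtor4 at 0.87 ± 0.26 (0.0696) and Lamtor5 at 0.53 ± 0.16 (0.0766).

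Among MPP2, MPP3 and MPP4, few members differed. MPP4 against MPP2 gave 2 of 43, Sesn1 and Deptor as above, with 4.01% of all genes, and MPP4 against MPP3 gave 1, Deptor, with 0.969%. MPP3 against MPP2 gave 0 by edgeR, with 0.798% of all genes, 3 members at an unadjusted p under 0.05 and 0 by DESeq2 and by limma-voom. The lowest p there was that of Sec13, at −0.30 ± 0.11 (adjusted p 0.233). Within WT alone 0 members passed in MPP2, MPP3 or MPP4 against MPP1 by edgeR, where 0%, 0.102% and 0.76% of all genes did. Unadjusted, 2, 5 and 3 members had a p under 0.05. With DESeq2, Ddit4 passed in MPP3 and Sesn1 in MPP4, and with limma-voom 0 passed in each. Comparisons against MPP1 share its libraries and are not independent.

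The second question was whether the 1013 allele altered these genes. No member passed in any genotype comparison by edgeR. For +/1013 against WT the count was 0 of 43 in each subset, with 0% of all genes, and 0 in the mean over subsets, with 0.0214%. Without adjustment 1, 1, 3 and 0 members in MPP1 to MPP4 and 2 in the mean had a p under 0.05, and with DESeq2 and limma-voom 0 passed. The lowest p-values of the mean were those of Pdpk1 at −0.56 ± 0.24 and Nprl3, a GATOR1 subunit, at 0.52 ± 0.24, both with an adjusted p of 1.

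For 1013/1013 against WT the mean over subsets gave 0 of 43, with 0.685% of all genes, and 8 members, or 18.6%, at an unadjusted p under 0.05 against 16.4% of all genes. In tests on simulated data this comparison recovered 44.8% of genes changed 2-fold and 80.6% of those changed 4-fold. Each rate rests on 67 altered genes and was not worked out separately for genes with low counts. The rates may therefore not hold for low members, such as Mtor, Tsc1 and Depdc5, with medians of 8.97, 5.10 and 2.47 CPM. Recovery in the presence of the length trend or of the split by multiples of 3 was not tested. The lowest p-values were those of Lamtor5 at 0.50 ± 0.14 (adjusted p 0.091), Rps6kb1 at −0.96 ± 0.29 (0.112) and Akt1 at −0.67 ± 0.22 (0.13). Rps6kb1, the main S6 kinase, had 9.45, 38 and 51.8 CPM as lowest, median and highest value in WT and 4.60, 16.8 and 31.2 in 1013/1013, so the genotypes overlapped. DESeq2 called 5 members (Deptor, Lamtor5, Rps6kb1, Akt1 and Pdpk1) and limma-voom 0. Without the 8 libraries numbered by a multiple of 3, 1 library each was left in MPP2 1013/1013 and MPP4 1013/1013. The differences were then −1.50 for Rps6kb1, −0.74 for Akt2 and −1.05 for Wdr24, and calls of that fit are not given. The remaining MPP2 1013/1013 library had the lowest long-minus-short deviation of all 32, −1.36. It held 4.60, 23.9 and 10.5 CPM of these genes. Mtor differed by 0.18, with a 95% interval from −0.60 to 0.96, and Sesn1 by −0.05, with an interval from −0.65 to 0.55. A fit with a term for the libraries under 1 CPM of Ddx3y, which were 8 WT and 0 1013/1013 libraries, also gave 0 members.

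Within subsets, 1013/1013 against WT gave 0 of 43 in MPP1, MPP2, MPP3 and MPP4, with 0.00535%, 0.00535%, 0% and 0.712% of all genes. Before adjustment, 1, 9, 1 and 14 members had a p under 0.05. In MPP4 these 14 were 32.6% of the members against 15.8% of all genes, and the libraries of the 2 groups did not overlap for 22 members and for 34.3% of all genes. DESeq2 called 9 in MPP4 (Deptor, Tsc1, Rragd, Fnip1, Nprl3, Sec13, Pdpk1, Pik3cd and Ulk1) and limma-voom 2 (Tsc1 and Sec13), while in MPP2 DESeq2 called 3 (Rragd, Lamtor5 and Rps6kb1) and limma-voom 0. Both tools called 0 in MPP1 and MPP3. Each Rragd call rests on 1 WT library, at 6.04 CPM in MPP2 and 2.40 in MPP4, with all other libraries of the compared groups at 0. The MPP4 differences with the lowest p were those of Sec13 at 0.70 ± 0.19 (adjusted p 0.0745), Deptor, listed above at 0 in both 1013/1013 libraries, and Pik3cd at −3.13 ± 0.96 (0.119). Pik3cd had 68, 34.9 and 19.1 CPM in WT and 2.77 and 6.47 in 1013/1013, all of them lower. Deptor was at least 14.2-fold lower than in WT by the floor of 3 counts, but 1 of the 3 WT libraries was also at 0. In MPP2, Lamtor5 had 173, 131 and 126 CPM in WT and 426 and 230.0 in 1013/1013, a difference of 1.19 ± 0.29 (0.139).

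By role, the 6 PI3K and Akt genes were all lower in MPP4 1013/1013 than in WT, with a median of −1.47, and 7 of the 8 Rag and Ragulator genes were higher, with a median of 0.53. None of these passed. In the same comparison the median of all genes went from 0.45 in the shortest length quartile to −0.99 in the longest, and after the length trend was removed 0 members passed in any genotype comparison.

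**Figure D5:**
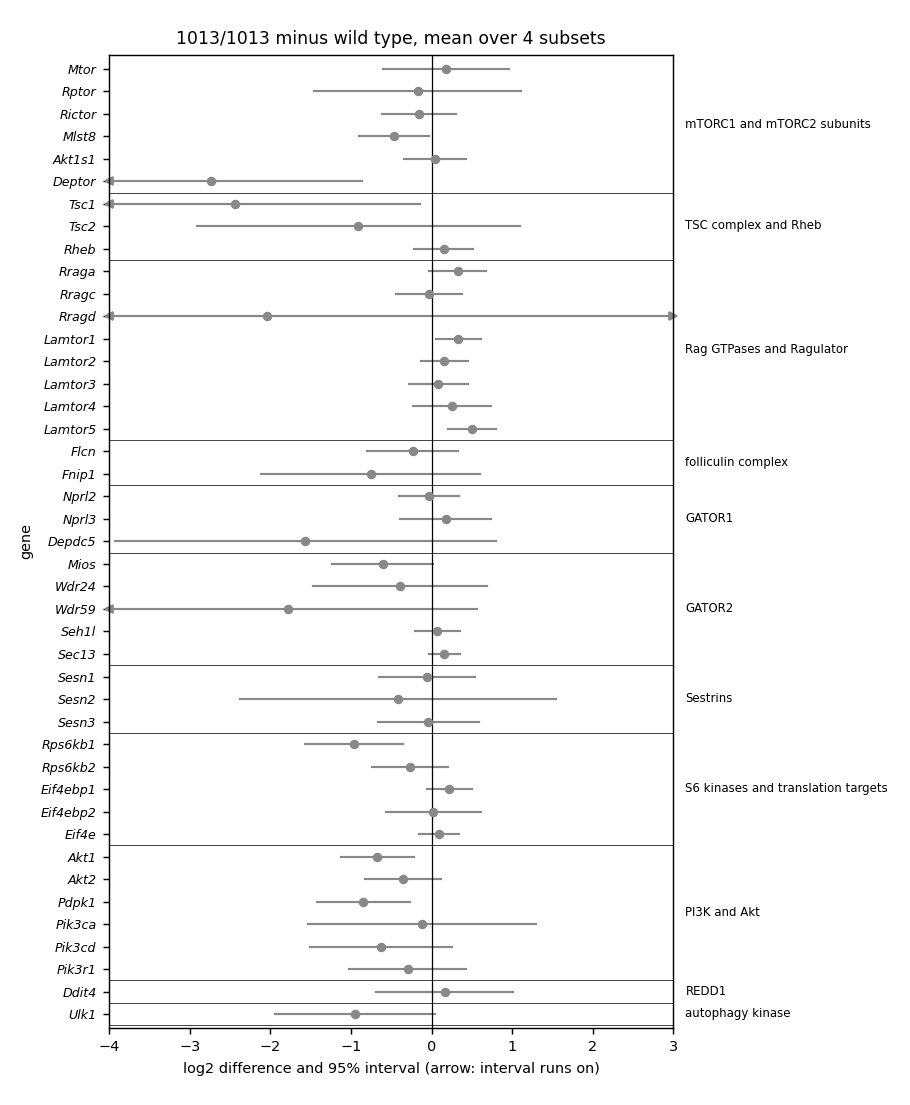
Log2 difference between 1013/1013 and WT for each of the 43 genes with 95% intervals. No interval belongs to a gene that passed, and the PI3K and Akt genes lie left of 0 in the mean over subsets.

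Homozygotes against heterozygotes gave 0 of 43 by edgeR, with 0.0428% of all genes, 7 members at an unadjusted p under 0.05 and 0 by DESeq2 and limma-voom. Whether the effect in MPP4 differed from that in the other subsets was tested directly. For +/1013, 0 members passed and 0% of all genes did, with 0 at an unadjusted p under 0.05 and 0 by DESeq2 and limma-voom. For 1013/1013, 0 passed with 0.102% of all genes, 7 members had a p under 0.05 before adjustment, and 5 passed with DESeq2 and 0 with limma-voom. The lowest p was that of Nprl3 at −2.35 ± 0.66 (adjusted p 0.239). Nprl3 had 18.8, 27.3 and 48.1 CPM in MPP4 WT and 13.04 and 7.82 in MPP4 1013/1013, but 19.6, 15.3 and 7.90 in MPP3 WT and 45.6 and 41.1 in MPP3 1013/1013. The order of WT and 1013/1013 was thus opposite in these subsets, and the difference did not pass the test.

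Other genes of the pathway, from lists set by function, were compared between MPP4 and MPP1 in the same fit. Of 21 further mTOR complex and sensor genes, 1 was higher and 1 lower, and of 19 further PI3K and Akt genes likewise 1 and 1, where 7.59% of all genes were higher and 7.12% lower. The counts of these lists were near that background. Prr5, an mTORC2 subunit, had 8.30, 12.4 and 24.4 CPM as lowest, median and highest value in MPP1 and 68.5, 81.5 and 132 in MPP4, with no overlap and a log2 difference of 2.74 (adjusted p 3.5e-07). Sgk3, a kinase related to Akt, had 95.1, 147 and 201 CPM in MPP1 and 289, 380 and 589 in MPP4, again with no overlap, and a difference of 1.52. Both kept their calls without the 1013/1013 libraries, at 2.62 for Prr5 and 1.47 for Sgk3. Fnip2 at −3.88 and Igf1r, the IGF receptor, at −1.71 lost theirs.

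Among 26 further substrates and translation factors, 2 were higher and 4 lower. Grb10, an mTORC1 substrate that dampens insulin signalling, had 32.5, 74.3 and 101.6 CPM in MPP1 and 0, 0.626 and 4.62 in MPP4, where 4 of 8 libraries were at 0. Its groups did not overlap, and it kept its call without the 1013/1013 libraries. Eif4a1, the cap helicase, at 0.69 and Larp4 at −1.02 did not keep theirs. Of 29 mTORC1-induced metabolic genes 3 were higher and 6 lower, against the same 7.59% and 7.12% of all genes, and none kept its call without those libraries. Of 29 lysosomal and autophagy genes, 3 were higher and 3 lower, of which Atp6ap1, a proton pump subunit, at 0.57 kept its call. Of 18 FoxO target genes, 2 were higher and 4 lower. Il7r, the receptor for interleukin 7, was at 0 in all 8 MPP1 libraries and at 7.11 to 25.2 CPM in MPP4. It kept its call, as did the lower Cited2, a gene chosen after its values were seen.

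Across the same lists, the mean of 1013/1013 against WT gave no higher gene by edgeR. Lower were 2 of the 26 substrates and translation factors, 1 of 29 metabolic, 1 of 29 lysosomal and autophagy and 1 of 18 FoxO target genes, and none of the 21 sensor or 19 PI3K and Akt genes, against 0.477% of all genes. Higher calls appeared with DESeq2, 1 each among the sensor, PI3K and FoxO genes, and without the multiples of 3 and with the length trend removed, 1 in each fit. Genes that were lower included Larp4 at −1.33 (adjusted p 0.0083), an mRNA-binding protein, Uvrag at −1.38 (0.00645), an autophagy gene, the antioxidant enzyme Cat at −0.84 (0.0223) and Grb10 at −5.65 (0.0222). The fitted value of Grb10 depends on how the zeros are treated: both 1013/1013 libraries were at 0 in MPP3 and in MPP4, and the mean was 14.8 CPM in 1013/1013 and 25.2 in WT. Larp4 had 26.7, 62.5 and 110.0 CPM as lowest, median and highest value in WT and 5.53, 29.4 and 56.4 in 1013/1013, so the genotypes overlapped. These 4 passed after the length trend was removed. Larp4, Uvrag and Cat also passed in MPP4 1013/1013 against MPP4 WT, where Larp4 had 59.6, 72.5 and 110.0 CPM in WT and 5.53 and 11.3 in 1013/1013. Without the libraries numbered by a multiple of 3, where 1 MPP4 1013/1013 library was left, no listed gene kept its call there. Uvrag also lost its call in MPP4 with the length trend removed, at an adjusted p of 0.0816. None of the listed genes passed for +/1013 in the mean or in any subset.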

How the data were processed

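Full-length cDNA was made from 350 to 1000 pg of RNA per pool with 12 PCR cycles and tagmented, per the labels' protocols. The authors deposited raw read counts per gene, made with STAR and HTSeq on mm10 per the submitters' processing notes, whose versions and strand setting are not given in the sources used here. The table's 64 other per-sample columns were not used.

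The 12 groups were fitted together in edgeR 4.0.16 (R 4.3.3), with its default low-count filter, TMM scaling, a trended dispersion and the quasi-likelihood F-test, in 22 comparisons. p-values were adjusted by Benjamini-Hochberg over all 18676 genes tested, with a threshold of 0.05. The residual degrees of freedom were 20. CPM are counts scaled by TMM-adjusted library size. Alternatives used DESeq2 1.42.0, limma 3.58.1, other filters, batch terms and left-out libraries. The fit was tested on simulated data. The genes and lists were chosen with earlier results of these data known. Named are Mtor, each member that passed, the 3 lowest p-values where fewer than 3 passed, and up to 4 passing genes per list. Exon lengths are from GENCODE M21. Floors of 3 counts cover counting error only. Some results are not reported here.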

Additional observations from a re-analysis of the deposited data

How the results depend on the processing

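Counts of members that passed moved by over 1.5 times as follows. For MPP2 against MPP1 the count was 6, and became 11 with a stricter filter, 17 with DESeq2, 12 with limma-voom, 14 with edgeR's newer dispersion method, 10 without the libraries numbered by a multiple of 3, 3 with a term for libraries numbered from 46 on and 0 without the 1013/1013 libraries. For MPP3 against MPP1 it was 1, and became 8 with DESeq2, 4 with limma-voom, 3 with the newer dispersion method and 0 without the 1013/1013 libraries. For MPP4 against MPP1 it was 15, and became 1 without the 1013/1013 libraries, an alternative that also tests fewer samples. For MPP4 against MPP2 it was 2, and became 1 with no filter, the newer dispersion method, the term for late numbers, the Ddx3y term, and without the libraries numbered by a multiple of 3 or the 1013/1013 libraries. For MPP4 against MPP3 it was 1, and became 2 with DESeq2 and 0 without either set of libraries. MPP3 against MPP2 gained 1 without the multiples of 3, MPP3 WT against MPP1 WT 1 with DESeq2, and MPP4 WT against MPP1 WT 1 with DESeq2 and 1 with the newer dispersion method. Genotype counts of 0 became 3 with DESeq2 for MPP2 1013/1013. For MPP4 1013/1013 they became 1 with the stricter filter, 9 with DESeq2 and 2 with limma-voom. Rragd is among the 3 and the 9. For the 1013/1013 mean and for the MPP4-specific 1013/1013 effect the count became 5 with DESeq2. Without the multiples of 3, MPP2 1013/1013 and MPP4 1013/1013 keep 1 library each, so the genotype counts of that fit are not given. The cause was not tested.

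Leaving out 1 library gave 3 to 12 members for MPP2 against MPP1, 0 to 4 for MPP3 against MPP1, 10 to 16 for MPP4 against MPP1, 0 to 2 for MPP4 against MPP2, 0 to 1 for MPP4 against MPP3, 0 to 6 for the 1013/1013 mean, 0 to 1 for 1013/1013 against +/1013, 0 to 5 for MPP2 1013/1013 and 0 to 1 for MPP4 1013/1013.

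The replicate numbers were not taken to pair the libraries, since correlations of same-numbered libraries ran from −0.288 to 0.372 (median 0.053) and were over 0.1 in 66 of 160 pairs, not in all. They were higher than those of different-numbered libraries (median −0.025, over 0.1 in 40 of 308 pairs), and within a subset the median was 0.122 with 15 of 28 over 0.1. As a hint from the data, 22 of 32 libraries correlated best with their own number. With the number as a replicate block, MPP2 against MPP1 gave 10 members and MPP4 against MPP2 gave 1. Neither the correlations nor this block kept the genotypes apart, so a pairing of subsets within a genotype was not tested. The subset comparisons treat the libraries as unpaired. In WT, Ddx3y ran from 46.2 to 83.3 CPM over the subsets in replicate 1 and was 0 in replicate 2. In +/1013 replicate 3 it was 42.6 in MPP1 and 0 in the other subsets.

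Values that changed sign did not pass in either fit. Mtor became −0.18 and −0.10 in the 1013/1013 mean without the multiples of 3 and with the late-number term, and −0.21 and −0.23 against +/1013. In MPP3 against MPP1 it became −0.059 with a term for multiples of 3, −0.19 without them and −0.026 without the 1013/1013 libraries, which also gave −0.15 in MPP2 against MPP1 and 0.12 in MPP3 against MPP2. Once the length trend was removed it became 0.50 in MPP4 against MPP1. In the MPP4-specific +/1013 effect Nprl3 became 0.16 without the multiples of 3, and Lamtor2 became −0.0014 in MPP2 +/1013 against WT with the length trend removed. Leaving out 1 library, Mtor ran from −0.082 to 0.19 in the +/1013 mean, −0.34 to 0.36 in the 1013/1013 mean, −0.42 to 0.28 against +/1013, −0.15 to 0.36 for MPP3 against MPP1, −0.83 to 0.11 for MPP4 against MPP1 and −0.49 to 0.019 for MPP3 against MPP2.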
